A study of Homo sapiens with 21 samples.

Results

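The EIF4 genes code for factors that bring the capped end of an mRNA to the ribosome, and the RNA of 10 of them was followed here in HNRNPK PAR-CLIP libraries. The members were EIF4E, EIF4E2, EIF4E3, EIF4G1, EIF4G2, EIF4G3, EIF4A1, EIF4A2, EIF4B and EIF4EBP2. A cluster, which is a stretch of overlapping reads that carry T-to-C changes, was taken as theirs where its deposited gene name was 1 of these symbols. The members held 663 of 778762 clusters and were 10 of the 18322 named genes with a cluster in any library. Clusters that overlapped on the same strand by at least 1 nt were merged into sites, which gave 481 member sites among 592021 sites in all.

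PAR-CLIP marks the places where a protein touches RNA in living cells. Cells take up 4-thiouridine (4SU), long-wave ultraviolet light crosslinks it to the bound protein, and after reverse transcription the crosslinked T appears as C. The 4 libraries came from MDA-MB-231 cells, an established triple-negative breast cancer line, which were either parental or *KRT19* knockout (KO) cells made with CRISPR/Cas9. Both kinds of cell received 4SU and light, and HNRNPK, a nuclear and cytoplasmic protein that binds C-rich RNA, was precipitated from a cytoplasmic and a nuclear fraction of each. *KRT19* codes for keratin 19 (K19), a filament protein, and the study asked how its loss changes the RNAs that HNRNPK holds in the cytoplasm. Whether the KO cells were 1 clone is not given in the sources used here. There was 1 library per condition, so no difference below has a replicate check, no test between conditions was run, and each 95% interval covers counting error only. In every list of 4 values the parental library comes before the *KRT19* KO library, first for the cytoplasm and then for the nucleus. Levels are in RPM, the reads of a gene or site scaled to 1000000 cluster reads of its library.

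As background, translation of most mRNAs begins when the eIF4F complex binds the cap. EIF4E is the cap-binding subunit, EIF4G1 and EIF4G3 are scaffolds that hold it to the helicase subunit, and EIF4A1 and EIF4A2 are closely related forms of that helicase. EIF4B stimulates the helicase. EIF4EBP2 is an inhibitor that occupies EIF4E until mTOR signalling releases it. EIF4E2, also called 4EHP, binds the cap without joining EIF4G and is known as a repressor, EIF4E3 is an atypical cap-binding relative, and EIF4G2, also called DAP5 or p97, resembles EIF4G1 but lacks the part that binds EIF4E. HNRNPK binds RNA through KH domains that prefer runs of C.

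The sequences of 9 member sites are shown because they held the most reads of their gene, were found in all 4 libraries, or carried the differences described below. Each is the shortest cluster of its site, 5′ to 3′ in the RNA's sense and in DNA letters as deposited, with hg19 (GRCh37) coordinates. Capitals mark runs of at least 3 C. The EIF4G2 site in the 5′UTR was chosen after its values were seen, and the others are the leading site of a gene or a site found in all 4 libraries.
EIF4G2 coding exon 19, chr11:10821169-10821189, minus strand: catCCCCtcaaaccatatata
EIF4G2 5′UTR exon 1, chr11:10830307-10830335, minus strand: tCCCCtttCCCCtCCCttCCCtatCCCCg
EIF4EBP2 3′UTR, chr10:72181852-72181872, plus strand: tcaaatatcaacctaccaaca
EIF4B intron 1, chr12:53404097-53404126, plus strand: aacttaCCCaatCCCCaactaaatcaaaag
EIF4B intron 8, chr12:53423669-53423695, plus strand: ccttcctcaaaataataataataattc
EIF4A1 intron 5, chr17:7480313-7480339, plus strand: tatatctctCCCacatttCCCtaatca
EIF4E annotated 3′UTR, chr4:99798652-99798681, minus strand: atttctcaaaacatattCCCatcattaatc
EIF4G3 coding exon 14, chr1:21268212-21268240, minus strand: ctttcctccaactcctccaactcctccag
EIF4G1 intron 6, chr3:184036932-184036958, plus strand: tttttcttcatcttgagcctagttcat
Every member cluster had the GRCh37 sequence at its position, and 657 of 663, those shown here included, occurred once in that genome. The EIF4G2 5′UTR site is close to an unbroken C and T tract with 5 runs of C. No cluster of the EIF4B intron 8 site, the EIF4G3 coding site or the EIF4G1 intron site held a run of 3 C. The EIF4EBP2 stretch shown, the 21 nt cluster of the *KRT19* KO nuclear library, holds none, while the other 2 clusters of that 71 nt site do. The EIF4G2 exon 19 stretch is a cluster of the parental nuclear library. At these sites, among others, the mode position deposited for the cluster with the most reads lies outside the stretch shown, at chr11:10821192 and chr10:72181909. Reads given below are those of whole sites.

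Reads in clusters totalled 5551612, 6216226, 3537577 and 3252800, in 201726, 177530, 200387 and 199119 clusters. *KRT19*, the deleted gene, was found at 7 and 5 reads, each in an intron, in the parental and *KRT19* KO cytoplasm and had no cluster in the nuclear libraries, so these reads cannot check the genotype. *HNRNPK* itself had 45.2, 63.2, 114 and 58.1 RPM. The parental cytoplasmic library stood apart in that 1 cluster, in SLCO5A1, held 5.83% of its reads, and intronic clusters held 42.3% of its reads against 23.0% in the *KRT19* KO cytoplasmic library. Mitochondrial clusters held 0.708%, 4.64%, 0.918% and 3.72% of reads. Without mitochondrial clusters and the largest cluster of each library, the members together had 827, 1808, 1108 and 1256 RPM, against the 773, 1688, 1097 and 1210 RPM described next.

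HNRNPK reads in the EIF4 genes made up a larger share of the *KRT19* KO cytoplasmic library than of the other 3. The members had 4292, 10494, 3882 and 3935 reads in 179, 158, 156 and 170 clusters. In RPM, that was 773 (95% Poisson interval 750 to 797), 1688 (1656 to 1721), 1097 (1063 to 1132) and 1210 (1172 to 1248). The surplus in the *KRT19* KO cytoplasm sat in EIF4G2 and EIF4EBP2, which had 5546 and 2227 of the 10494 reads. In such bulk fractions more binding per RNA and more copies of the RNA cannot be told apart, and mRNA levels were not analysed here. Clusters were called in all 4 libraries for 9 of the 10 members, the exception being EIF4E3.

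**Figure D1:**
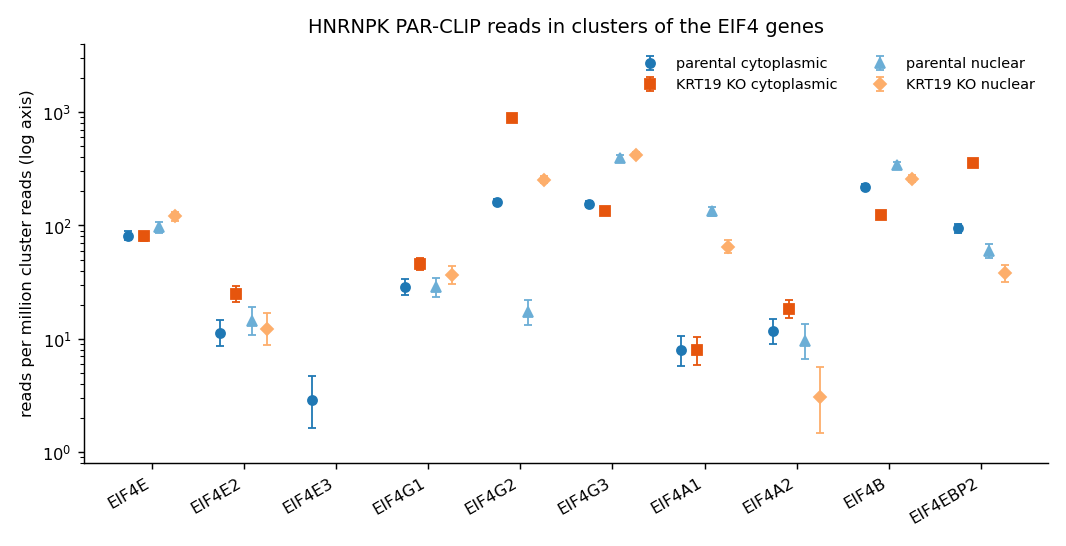
RPM (log axis) of each EIF4 gene in the 4 libraries, with exact 95% Poisson intervals as bars that cover counting error only. EIF4G2 ranges from 17.2 to 892, while EIF4E stays between 80.6 and 120, and EIF4E3 has a point only for the parental cytoplasmic library.

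Where on the transcript the reads lay differed between members and between fractions. Of the 663 clusters, 503 were annotated as intron, 76 as coding, 71 as 3′UTR and 7 as 5′UTR. Reads in 3′UTR clusters made up 17.6% (16.5 to 18.8%), 27.4% (26.6 to 28.3%), 3.79% (3.21 to 4.44%) and 3.13% (2.60 to 3.72%) of the member reads, against 31.6%, 47.4%, 5.35% and 5.43% of all cluster reads. In the *KRT19* KO cytoplasmic library coding clusters held 55.6% of the member reads, and 5368 of those 5835 reads were in EIF4G2. Introns held 57.5%, 16.6%, 91.0% and 74.6% of the member reads.

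**Figure D2:**
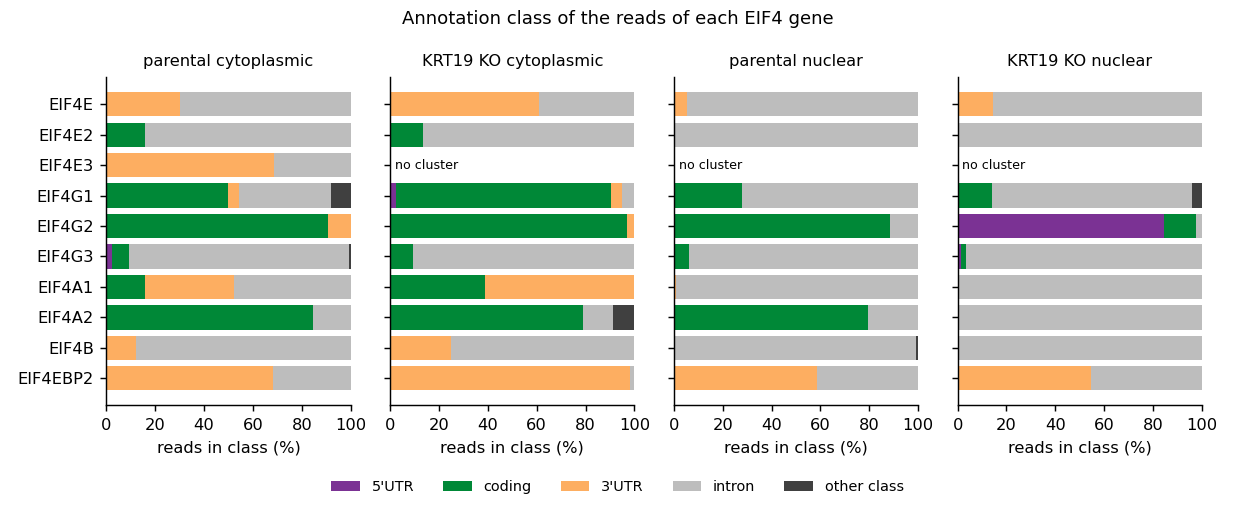
Share of each EIF4 gene's reads (%) by the annotation class of the cluster, 1 panel per library. EIF4EBP2 is mostly 3′UTR in the cytoplasm, EIF4G2 is mostly coding except for the *KRT19* KO nuclear library, where 84.7% of its reads are 5′UTR, and EIF4G3 is intronic throughout.

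EIF4E, which codes for the cap-binding subunit, had similar levels in all libraries, which differed more in where its reads lay. It had 453, 501, 341 and 391 reads, or 81.6 (74.3 to 89.5), 80.6 (73.7 to 88.0), 96.4 (86.4 to 107) and 120 (109 to 133) RPM. The intervals of the first 3 libraries overlapped, and the *KRT19* KO nuclear library was the highest. In the 3′UTR class lay 30.02% (25.8 to 34.5%), 60.9% (56.5 to 65.2%), 5.28% (3.16 to 8.21%) and 14.3% (11.0 to 18.2%) of its reads, with the class as the authors' annotation gave it. By GENCODE release 44, 7 of the 9 sites of this class lay beyond the end of the transcript. They held 78, 117, 18 and 56 reads, which includes every nuclear read of the class, and the 2 sites inside the 3′UTR held 58 and 188 reads in the parental and *KRT19* KO cytoplasm. Of the 59 EIF4E sites, 22 lay in intron 1, which is 27.1 kb long, and 9 carried the 3′UTR class. The most reads fell on chr4:99801937-99801992, 190 nt after the stop codon, with 53 and 188 reads in the parental and *KRT19* KO cytoplasm and no cluster in either nuclear library.

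EIF4E had 3 sites with a cluster in each of the 4 libraries. The site at chr4:99798650-99798681, whose sequence is shown above, had 50, 97, 18 and 21 reads, and its level was 1.73 times (1.22 to 2.49) as high in the *KRT19* KO as in the parental cytoplasm. It was 1 of the 7 beyond the GENCODE transcript. The other sites found in every library were intronic and smaller, with 10, 7, 29 and 10 reads at chr4:99817513-99817574 in intron 2 and 15, 12, 10 and 12 reads at chr4:99810532-99810554 in intron 3. The site with the highest summed level, chr4:99844806-99844839 in intron 1, had 61, 55 and 111 reads and no cluster in the *KRT19* KO nuclear library. An absent cluster means that fewer reads than the 5 of the smallest deposited cluster, or too few conversions, were found there, and gives no measured level of 0.

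Of the cap-binding relatives, EIF4E2 was bound mainly in introns and EIF4E3 was hardly seen. EIF4E2 had 63, 156, 51 and 40 reads, or 11.3 (8.72 to 14.5), 25.1 (21.3 to 29.4), 14.4 (10.7 to 19.0) and 12.3 (8.79 to 16.7) RPM, with the *KRT19* KO cytoplasmic library above the others and the other 3 intervals overlapping. An intron 6 site at chr2:233433281-233433313, which was too long for its sequence to be shown, carried 40, 99 and 51 of these reads and had no cluster in the *KRT19* KO nuclear library. EIF4E2 clusters were rich in C: 10 of its 12 clusters held a run of 3 C and 8 a run of 4, against 42.9% and 16.8% of all clusters. EIF4E3 had 16 reads in 3 clusters of the parental cytoplasmic library, of which 2 lay in its 3′UTR, and no cluster in any other library.

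EIF4G1, the main scaffold of eIF4F, had more of its reads in introns than in coding exons in the nucleus, and the reverse in the cytoplasm. Its 159, 286, 101 and 119 reads gave 28.6 (24.4 to 33.5), 46.0 (40.8 to 51.7), 28.6 (23.3 to 34.7) and 36.6 (30.3 to 43.8) RPM. Only the *KRT19* KO cytoplasmic interval lay above that of the parental cytoplasmic and parental nuclear libraries, and the *KRT19* KO nuclear interval overlapped all the others. Coding clusters held 49.7%, 88.1%, 27.7% and 14.3% of them, and introns 37.7%, 5.24%, 72.3% and 81.5%. Exon 10 alone held several sites, of which chr3:184039156-184039183 had 109 reads in the *KRT19* KO cytoplasm, 7 in the parental nucleus and no cluster in the other libraries. The 1 EIF4G1 site found in all libraries, chr3:184036928-184036959 in intron 6, had 27, 15, 68 and 13 reads. In the parental nucleus this site held 67.3% of the gene's reads, while 3 of the 5 clusters there were coding. T-to-C changes were found in 29.4% of its reads in that library, against 72.9% over all clusters of the library.

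EIF4G2, the EIF4G relative without an EIF4E-binding part, showed the widest range of any member. It had 900, 5546, 61 and 824 reads, or 162 (152 to 173), 892 (869 to 916), 17.2 (13.2 to 22.2) and 253 (236 to 271) RPM, and no pair of these intervals overlapped. A coding site of 120 nt in exon 19, chr11:10821130-10821249, held 376, 4151, 24 and 81 reads. That was 41.8% of the gene's reads in the parental cytoplasm and 74.8% in the *KRT19* KO cytoplasm. Its level was 9.86 times (8.87 to 11.0) as high in the *KRT19* KO as in the parental cytoplasm and 3.67 times (2.30 to 6.05) as high in the nucleus. The next coding site, chr11:10821700-10821752 in exon 18, had 291, 816 and 23 reads and no cluster in the *KRT19* KO nuclear library.

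In the *KRT19* KO nucleus the EIF4G2 reads lay elsewhere. The C-rich 5′UTR site shown above, 152 nt after the transcript start, had 626 reads there and no cluster in the other 3 libraries. A further 5′UTR site in exon 2, chr11:10828851-10828901, had 72 reads in the same library only. T-to-C changes were found in 35.6% and 31.9% of the reads at these sites, against 76.7% over all clusters of that library, and in 91.4% of the reads at the exon 19 site. The 626 reads came from 176 unique reads. Without the 5′UTR sites, an alternative chosen after the values were seen, EIF4G2 had 126 reads in the *KRT19* KO and 61 in the parental nucleus, and the ratio of levels was 2.25 (1.64 to 3.10) in place of 14.7 (11.3 to 19.4).

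**Figure D3:**
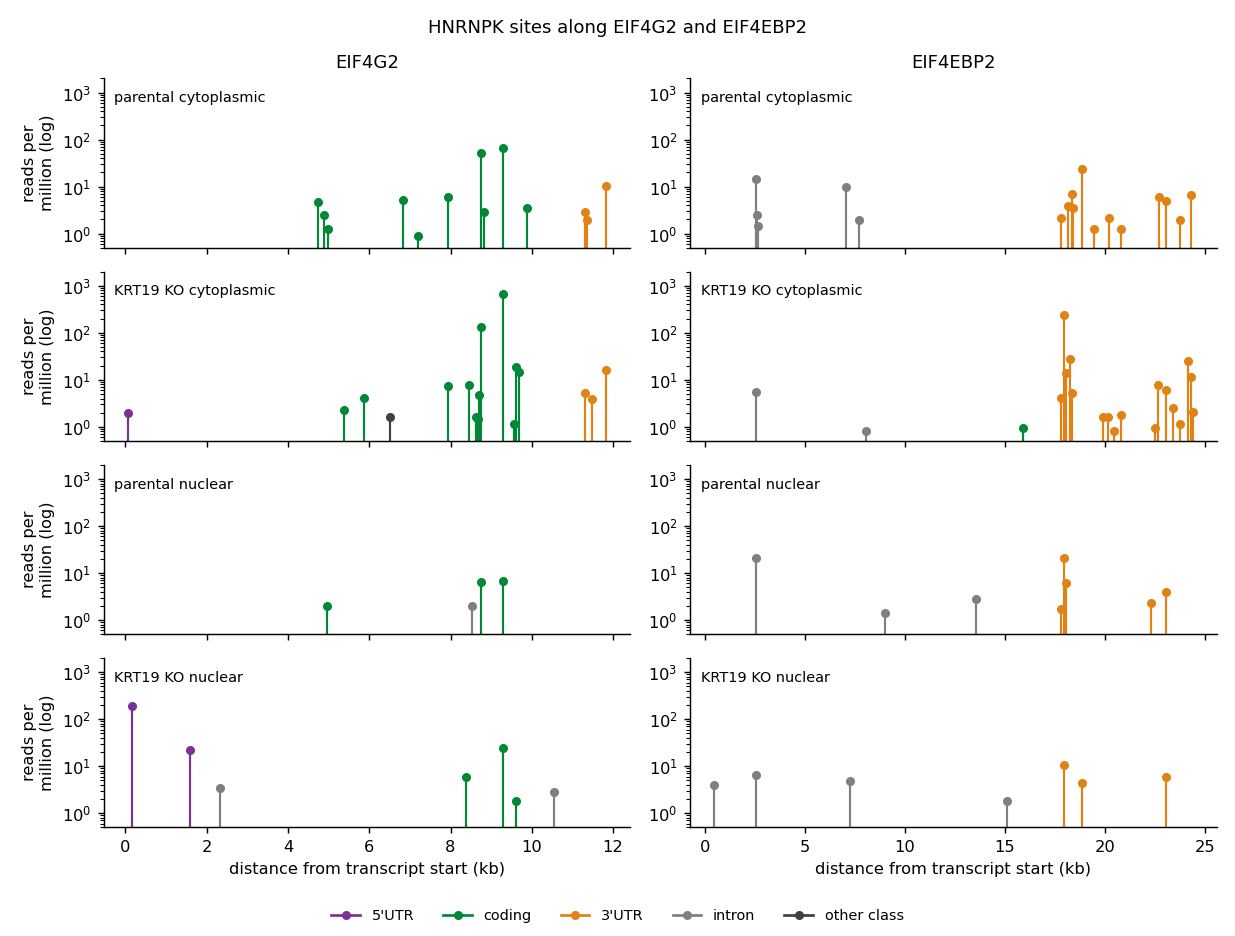
RPM (log axis) at each HNRNPK site of EIF4G2 and EIF4EBP2 by distance from the transcript start (kb), coloured by annotation class, 1 row per library. The tallest EIF4G2 point is the exon 19 coding site, 9284 nt from the start, in the *KRT19* KO cytoplasm (668 RPM). Of the 3 EIF4G2 5′UTR points, 2 lie in the *KRT19* KO nucleus and 1, at 1.93 RPM, in the *KRT19* KO cytoplasm. The tallest EIF4EBP2 point is the 3′UTR site 17973 nt from the transcript start.

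EIF4G3, a scaffold encoded by a long gene of 371 kb, was bound throughout its introns. It had 858, 837, 1406 and 1375 reads in 72, 60, 97 and 94 clusters, or 155 (144 to 165), 135 (126 to 144), 397 (377 to 419) and 423 (401 to 446) RPM. The nuclear libraries were far above the cytoplasmic ones, and the intervals of the parental and *KRT19* KO libraries overlapped in the nucleus but not in the cytoplasm. Introns held 89.9%, 90.7%, 94.0% and 96.4% of its reads. Its 238 sites, the most of any member, had a median of 11 reads over the 4 libraries together and none held more than 3.66% of the gene's reads, in contrast to 63.2% at the leading site of EIF4G2. Intron 2 (87.0 kb) held 64 sites and intron 14 (36.5 kb) held 38. The cluster density was 1.94, 1.62, 2.61 and 2.53 per 10 kb, against medians of 1.09, 0.817, 1.00 and 0.881 among genes of at least 100 kb with a cluster. The upper quartiles of those genes were 2.26, 1.79, 2.19 and 1.98, so EIF4G3 lay above them in the nuclear libraries only.

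Sites in all 4 libraries numbered 7 in EIF4G3. The 1 in a coding exon, chr1:21268212-21268247 in exon 14, had 27, 59, 55 and 23 reads, so the *KRT19* KO library was the higher in the cytoplasm and the lower in the nucleus. Intron 14 held 3 of the others. Of these chr1:21237446-21237478 had 59, 44, 11 and 45 reads, chr1:21257538-21257567 had 14, 32, 15 and 26, and chr1:21252190-21252217 had 5, 6, 7 and 11. An intron 2 site, chr1:21494326-21494356, had 9, 17, 85 and 19 reads and was 1 of those with few conversions, with T-to-C changes in 17.6% of its parental nuclear reads. The remaining 2 were chr1:21387599-21387646 in intron 3, with 31, 19, 25 and 6 reads, and chr1:21327178-21327222 in intron 6, with 11, 21, 27 and 7.

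EIF4A1, the main helicase gene, was seen chiefly in the nucleus and at 1 intronic site. It had 44, 49, 471 and 212 reads, or 7.93 (5.76 to 10.6), 7.88 (5.83 to 10.4), 133 (121 to 146) and 65.2 (56.7 to 74.6) RPM. The cytoplasmic libraries were alike within their intervals, both lay below the nuclear ones, and the parental nucleus was the highest. A site in intron 5, chr17:7480312-7480341, held 426 of the 471 reads in the parental nucleus and 198 of the 212 in the *KRT19* KO nucleus, with no cluster in the cytoplasm. It ends 32 nt before the 3′ splice site and begins 42 nt after the snoRNA gene SNORD10, and its sequence, shown above, has 2 runs of C. In the cytoplasm EIF4A1 reads lay in the 3′UTR for 36.4% and 61.2%.

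EIF4A2, the related helicase, had 65, 115, 34 and 10 reads, or 11.7 (9.04 to 14.9), 18.5 (15.3 to 22.2), 9.61 (6.66 to 13.4) and 3.07 (1.47 to 5.65) RPM. The *KRT19* KO cytoplasmic interval lay above all others and the *KRT19* KO nuclear interval below them, while the parental fractions overlapped. Coding clusters held 84.6%, 79.1% and 79.4% of its reads in the first 3 libraries and none in the *KRT19* KO nucleus. The leading site, chr3:186506986-186507027 in coding exon 11, had 20 and 46 reads in the parental and *KRT19* KO cytoplasm and no nuclear cluster. EIF4A2 clusters were poor in C, with 3 of 16 holding a run of 3 C.

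EIF4B, the helicase cofactor, was bound mostly in introns in every library. Its 1210, 777, 1205 and 841 reads gave 218 (206 to 231), 125 (116 to 134), 341 (322 to 360) and 259 (241 to 277) RPM, and no pair of intervals overlapped. Its 3′UTR sites had 146 and 195 reads in the parental and *KRT19* KO cytoplasm and no nuclear cluster, so the 3′UTR share was 12.1% (10.3 to 14.0%) and 25.1% (22.1 to 28.3%). Intronic levels were 192, 93.6, 338 and 259 RPM.

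The sites of EIF4B differed among themselves in how the *KRT19* KO libraries compared with the parental ones. The intron 1 site, chr12:53404094-53404134, was the steadiest, with 297, 303, 239 and 331 reads. Its *KRT19* KO to parental ratio was 0.911 (0.774 to 1.07) in the cytoplasm and 1.51 (1.27 to 1.79) in the nucleus. In intron 8, chr12:53423663-53423699 had 129, 39, 311 and 41 reads, a ratio of 0.270 (0.184 to 0.389) in the cytoplasm and 0.143 (0.101 to 0.199) in the nucleus. A further site found in all libraries, chr12:53414383-53414412 in intron 4, had 171, 76, 114 and 85 reads, with ratios of 0.397 (0.299 to 0.523) and 0.811 (0.605 to 1.08). Runs of 3 C were present in all 4 clusters of the intron 1 site and in none of the clusters of the intron 8 and intron 4 sites.

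EIF4EBP2, the inhibitor of EIF4E, was bound chiefly along its 3′UTR, which spans 6.87 kb with the stop codon. It had 524, 2227, 212 and 123 reads, or 94.4 (86.5 to 103), 358 (344 to 373), 59.9 (52.1 to 68.6) and 37.8 (31.4 to 45.1) RPM, and no pair of intervals overlapped. The *KRT19* KO library was thus the higher in the cytoplasm and the lower in the nucleus. The 3′UTR held 68.1% (64.0 to 72.1%), 97.9% (97.3 to 98.5%), 58.5% (51.5 to 65.2%) and 54.5% (45.2 to 63.5%) of its reads. Of its 36 sites, 24 were in the 3′UTR, and 12, 17, 5 and 3 of these had a cluster in the 4 libraries.

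A 3′UTR site 339 nt after the EIF4EBP2 stop codon, chr10:72181839-72181909, carried most of the difference. It had 1472 reads in the *KRT19* KO cytoplasm, 74 in the parental nucleus and 34 in the *KRT19* KO nucleus, and no cluster in the parental cytoplasm. Further 3′UTR sites with many reads in the *KRT19* KO cytoplasm only lay 635 and 6518 nt after the stop codon, with 173 and 154 reads. The opposite was seen 1224 nt after the stop codon at chr10:72182724-72182777, which had 134 reads in the parental cytoplasm, 14 in the *KRT19* KO nucleus and no cluster elsewhere. Both EIF4EBP2 sites found in all libraries were smaller, with 79, 35, 73 and 21 reads at chr10:72166466-72166499 in intron 1 and 27, 37, 14 and 19 reads at chr10:72186950-72186982 in the 3′UTR.

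Levels of different genes can be set side by side only per length. On exonic RPM per kb of exon, with the exons of all GENCODE transcripts of a gene merged, EIF4G2 was the highest member in both cytoplasmic libraries, at 19.1 and 105, and EIF4EBP2 the next, at 8.58 and 47.0. In the parental nucleus EIF4EBP2 (4.68) led EIF4G3 (2.02) and EIF4G2 (1.80). In the *KRT19* KO nucleus EIF4G2 (29.1) led EIF4EBP2 (2.75). EIF4E was left out of this order, since most of its sites of the 3′UTR class lay beyond the GENCODE exons.

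The comparison of *KRT19* KO with parental cytoplasm asks how HNRNPK-bound RNA differs where K19 is absent. The paper reports less HNRNPK protein in the cytoplasm of the *KRT19* KO cells. RPM is a share of each library, so a ratio above 1 gives a larger share of the bound reads and no measure of total binding. Of the 9 members with at least 50 reads in both libraries together, EIF4G2, EIF4EBP2 and EIF4E2 were at least 2-fold higher in the *KRT19* KO library, at ratios of 5.50 (5.13 to 5.91), 3.80 (3.45 to 4.18) and 2.21 (1.64 to 3.01). Over all genes 20.6% passed this threshold, so the 3 of 9 are not read as a feature of the group. No member was 2-fold lower, where 22.4% of all genes were, and the lowest ratio was that of EIF4B at 0.573 (0.523 to 0.628). The median log2 ratio was 0.66 over the members and -0.05 over all 9378 genes. EIF4E (0.988) and EIF4A1 (0.995) had ratios whose intervals included 1, although on clusters of at least 10 reads EIF4A1 stood at 2.22.

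Since introns took a larger share of the parental cytoplasmic library, the cytoplasmic comparison was also made on exonic reads scaled to all exonic reads of the library, an alternative chosen after the data were seen. Of 8 members, EIF4G2 at 3.37 (3.14 to 3.62) and EIF4EBP2 at 3.35 (2.995 to 3.76) were still at least 2-fold higher, where 26.2% of all genes were. EIF4G3 was 2-fold lower, at 0.490 (0.357 to 0.674), where 20.6% of all genes were. The remaining members ranged from 0.731 in EIF4B to 1.72 in EIF4G1. Among them EIF4A2 stood at 1.00 (0.716 to 1.42), against 1.58 on all reads. EIF4E2 had too few exonic reads to enter. Without each gene's cluster with the most reads the ratio of EIF4G2 was 2.62 and that of EIF4EBP2 1.91, below the threshold.

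In the nuclear comparison, 8 members had enough reads. EIF4G2 was higher in the *KRT19* KO nucleus, by the 5′UTR site in the main, and 14.4% of all genes were at least 2-fold higher. EIF4A1 was lower at 0.490 (0.414 to 0.577), and 18.2% of all genes were. EIF4A1 lay so near the threshold that it was inside it after scaling by the median of ratios (0.528) and on clusters of at least 10 reads (0.505). The other 6 members had ratios between 0.631 and 1.28. The medians of the log2 ratio were -0.07 for the members and -0.10 for all genes.

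**Figure D4:**
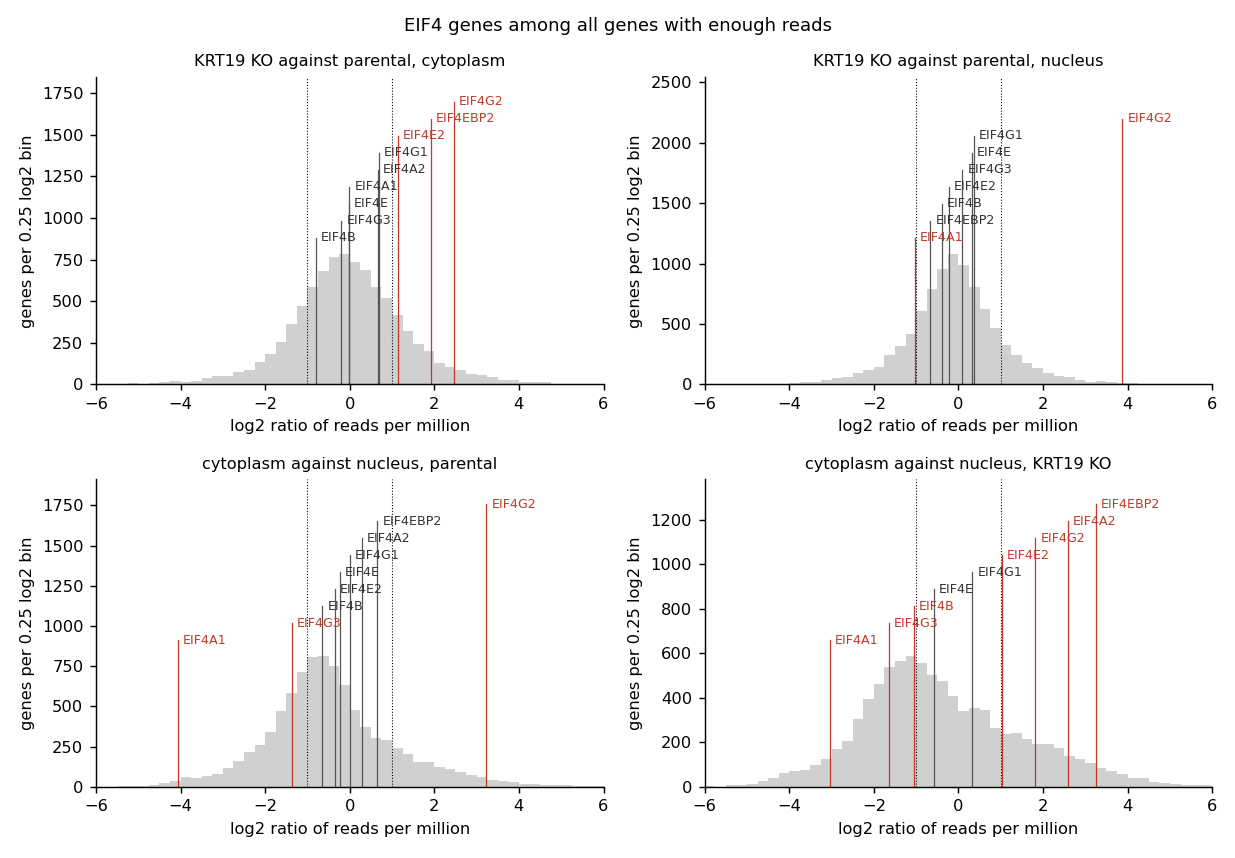
Log2 ratio of RPM in each comparison, with grey bars for all genes that had a cluster in both libraries and at least 50 reads in them together (genes per bin of 0.25) and labelled lines for the EIF4 genes, whose heights only separate the labels. Red lines lie past the dotted 2-fold limits, where EIF4G2 is on the right in all 4 panels and EIF4A1 on the left in all but the cytoplasmic panel.

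Cytoplasm and nucleus were compared within each kind of cell. In parental cells, of 9 members only EIF4G2 was at least 2-fold higher in the cytoplasm, at 9.40 (7.25 to 12.4), where 18.8% of all genes were. EIF4A1 at 0.0595 (0.0427 to 0.0812) and EIF4G3 at 0.389 (0.357 to 0.424) were lower, where 34.8% of all genes were. In *KRT19* KO cells EIF4EBP2 at 9.47 (7.90 to 11.5), EIF4A2 at 6.02 (3.16 to 12.9), EIF4G2 at 3.52 (3.27 to 3.79) and EIF4E2 at 2.04 (1.43 to 2.97) were higher, where 24.4% of all genes were. EIF4A1 at 0.121, EIF4G3 at 0.319 and EIF4B at 0.483 were lower, where 41.2% of all genes were. These counts depend on the scaling, since all genes had a median log2 ratio of -0.58 for the parental cells and of -0.66 for the knockout. After scaling by the median of ratios it was -0.02 and 0.02, with 25.8% and 33.4% of all genes at least 2-fold higher and 20.02% and 25.02% lower, and 2 members were higher and 1 lower in parental cells and 5 higher and 1 lower in *KRT19* KO cells, with EIF4A1 the lower one in both. Exonic clusters held 34.5%, 56.2%, 8.33% and 10.3% of all cluster reads, so scaling to exonic reads changes the divisor between fractions. Relative to exonic reads alone, an alternative chosen after the values were seen, several ratios moved. In parental cells EIF4A1 stood at 0.709 (0.264 to 2.39), EIF4G2 at 2.57 and EIF4G3 at 0.158, while EIF4E (1.16), EIF4G1 (0.473), EIF4A2 (0.314) and EIF4EBP2 (0.444) crossed 1. The interval of EIF4E on exonic reads and those of EIF4G1 and EIF4A2 on all reads included 1. In *KRT19* KO cells EIF4G2 crossed 1, at 0.660, and EIF4EBP2 stood at 3.13.

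Most member sites were seen in 1 library only. Of the 481 sites, 359 were found in 1 library, 82 in 2, 23 in 3 and 17 in 4. Those in at least 2 libraries made up 25.4% (21.5 to 29.5%) of member sites and 22.6% of all sites, and the interval includes the latter. The share ran from 14.3% in EIF4A2 to 37.0% in EIF4G1 among members with more than 3 sites. Sites in all 4 libraries made up 3.53% of member sites and 1.68% of all sites. Of the 17 sites in all libraries, 13 were intronic and 4 exonic.

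**Figure D5:**
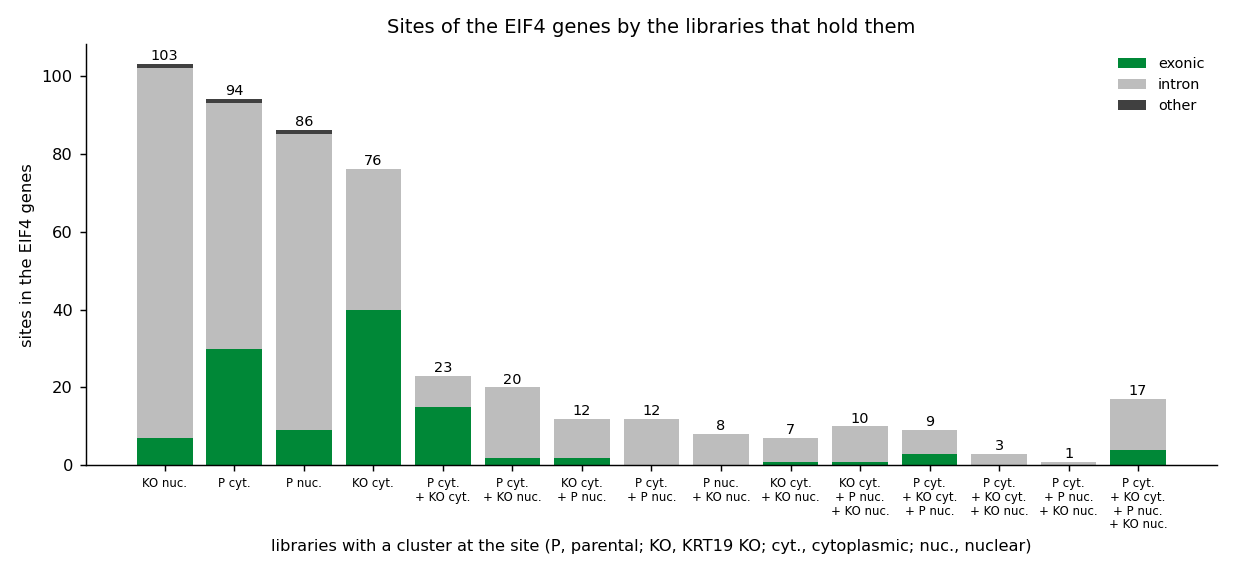
Number of EIF4 sites by the set of libraries with a cluster there, split into exonic, intronic and other sites. The 4 leftmost bars, 103, 94, 86 and 76 sites, are those of 1 library only, and 17 sites were found in all 4.

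Exonic and intronic member sites were found in at least 2 libraries at shares of 24.6% and 25.8%, against 28.2% and 24.4% over all genes. Among sites of exactly 2 libraries, 23 joined the cytoplasmic libraries, of which 15 were exonic, and 8 joined the nuclear libraries, all intronic. The parental cytoplasmic and *KRT19* KO nuclear libraries alone shared 20 sites, of which 18 were intronic. Of the 82 member sites in 2 libraries, these pairs made up 28.0%, 9.76% and 24.4% in that order, and over all genes the same pairs made up 24.8%, 15.6% and 14.0% of such sites. The distance from an intron site to the 3′ splice site differed between members, with medians of 32 nt over 7 sites in EIF4A1, 122 nt over 11 sites in EIF4G1, 3281 nt over 50 sites in EIF4E and 15761 nt over 225 sites in EIF4G3, whose introns are long. Of 365 sites in introns of the GENCODE transcript, 11 lay within 50 nt of the 3′ splice site and 10 within 50 nt of the 5′ splice site.

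The letters of the member clusters were close to those of all clusters. Over the 663 clusters the bases were 29.9% A, 26.6% C, 8.96% G and 34.6% T, against 30.8%, 27.0%, 7.55% and 34.6% over all clusters. RNase T1, used to trim the RNA, cuts after G. A run of 3 C, searched as CCC on the RNA strand, was held by 39.5% (35.8 to 43.4%) of member clusters and 42.9% of all clusters, and TCCC by 29.3% (25.8 to 32.9%) and 30.7%. The members varied more, from 18.8% with CCC in EIF4A2 and 33.1% in EIF4G3 to 53.8% in EIF4EBP2, 57.1% in EIF4A1 and 83.3% in EIF4E2. T-to-C changes were present in 64.0%, 60.9%, 74.5% and 70.6% of member reads, against 66.4%, 59.6%, 72.9% and 76.7% of all cluster reads.

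Other genes of translation initiation gave a wider view, from a list of 44 that covers further initiation factors, their kinases and regulators. Of these, 43 had a cluster, and EIF4EBP3 had none. In the *KRT19* KO against parental cytoplasm 7 of the 36 with enough reads were at least 2-fold higher and 7 lower, and in the nucleus 6 of 37 were higher and 6 lower, against 20.6% and 22.4% of all genes in the cytoplasm and 14.4% and 18.2% in the nucleus. Between fractions, 9 of 37 were higher in the cytoplasm of parental cells and 11 lower, and 8 were higher and 16 lower in *KRT19* KO cells, where all genes gave 18.8% and 34.8% for the former and 24.4% and 41.2% for the latter. The 3 with the most reads were EIF1, which guards start codon choice, EIF3H, a subunit of the eIF3 complex, and EIF2AK2, the kinase PKR. EIF1 had 615, 1543, 67.6 and 38.4 RPM, EIF3H 224, 182, 282 and 454, and EIF2AK2 231, 366, 146 and 61.5. Like EIF4EBP2, EIF1 and EIF2AK2 were higher in the *KRT19* KO cytoplasm and lower in the *KRT19* KO nucleus than in the parental library, and EIF3H showed the reverse. Relative to exonic reads EIF3H did not, at 1.06 (0.823 to 1.37) in the cytoplasm and 0.267 (0.171 to 0.405) in the nucleus. EIF1 then stood at 1.54 and 0.424, and EIF2AK2 at 1.10 and 0.319.

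EIF4E was also placed among all genes by its 4 levels. On log2 of RPM plus 1, the nearest of 11583 genes were SEC24B, ZNFX1 and CHD7, at Euclidean distances of 0.25, 0.27 and 0.28 over the 4 libraries. SEC24B had 69.2, 84.3, 94.7 and 116 RPM, close to those of EIF4E in each library. Levels of this size are common, and the distances are a description over 4 libraries.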

How the data were processed

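HNRNPK PAR-CLIP was measured in 4 libraries with 1 library per condition, and the 17 RNA-seq samples of the series were not analysed here. According to the methods, the authors collapsed reads, removed adapters and molecular identifiers, aligned to hg19 and called and annotated clusters with PARpipe and PARalyzer. The labels name hg38 as the build, but all 663 member clusters had the GRCh37 sequence at their positions. The authors deposited raw counts of reads, unique reads and reads with T-to-C changes per cluster, without normalization, beside positions, classes and gene names. Their fraction, score and log10 columns were not used. The smallest deposited cluster had 5 reads.

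Counts were summed per gene and divided by all cluster reads of the library. Genes with at least 50 reads in the compared libraries together were counted at 2-fold, and a gene with a cluster in only 1 of them was counted as past it. Intervals are exact Poisson, Clopper-Pearson and conditional binomial ones at 95%. The intervals cover counting error only. According to the methods, collapsing the reads was meant to remove potential PCR duplicates. Where copies of 1 molecule remained, they are not independent reads, and the intervals can be too narrow even for counting error. Unique reads made up 30.9%, 45.6%, 20.0% and 19.0% of the cluster reads of the 4 libraries. Exons, stop codons and splice sites came from GENCODE release 44 lifted to GRCh37, which is not the authors' release. Named were the 10 members, the leading site of each, each member site in all 4 libraries, KRT19, HNRNPK, the 3 genes nearest EIF4E, the 3 listed initiation genes with the most reads, and sequences of up to 30 nt. Other sites were chosen after their values were seen. Members and lists were chosen with earlier results of these data known. Alternatives were the scaling, unique reads, the read minimum, clusters of at least 10 reads, the overlap of clusters and leaving out large clusters. Fold calls and ratio intervals were tested on simulated counts, and merging was compared with a plain merge on the deposited clusters of a single chromosome. Python 3.11.15, numpy 2.4.6, pandas 2.3.3, scipy 1.17.1 and matplotlib 3.10.9 were used.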

Additional observations from a re-analysis of the deposited data

Results flagged for a closer look

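EIF4EBP2 was higher in the *KRT19* KO than in the parental cytoplasm and lower in the *KRT19* KO than in the parental nucleus, with both counting intervals clear of 1. The ratios were 3.80 (3.45 to 4.18) and 0.631 (0.501 to 0.792). Of the 8 members with enough reads in both comparisons it alone met this condition, and 823 of 7953 genes, or 10.3%, met it too, EIF1 and EIF2AK2 among them. EIF4A2 had ratios of 1.58 and 0.320 but too few nuclear reads, 10 in the *KRT19* KO and 34 in the parental library. With 1 library per condition the difference between these ratios was not tested. Without the gene's cluster with the most reads in each library, which was not the same site in both cytoplasmic libraries, the ratios of EIF4EBP2 were 1.91 and 0.6998. On unique reads they were 3.80 and 0.560, and on clusters of at least 10 reads 3.79 and 0.673.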

How the results depend on the processing

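Of 50 values recomputed under another setting, 33 stayed within 1.5 times the reported count or within its counting interval and 17 did not. Of 19 values under settings added after seeing the data, 5 stayed, 9 did not and 5 crossed 1. On exonic reads the cytoplasm to nucleus ratio crossed 1 for EIF4G2 in *KRT19* KO cells (3.52 to 0.660) and in parental cells for EIF4E (0.847 to 1.16), EIF4G1 (1.00 to 0.473), EIF4A2 (1.22 to 0.314) and EIF4EBP2 (1.58 to 0.444). The interval included 1 for EIF4G1 (0.777 to 1.30) and EIF4A2 (0.793 to 1.90) on all reads. It also did for EIF4E on exonic reads (0.709 to 2.02). Exonic reads were 34.5%, 56.2%, 8.33% and 10.3% of all cluster reads in the 4 libraries, so the divisor itself changed between fractions. In *KRT19* KO cells 100% and 97.6% of EIF4G2 reads were exonic in the cytoplasm and the nucleus. No cause beyond this change of scale was tested. In the nuclear *KRT19* KO comparison the 1 lower member became 0 after scaling by the median of ratios and 2 with no read minimum. On clusters that held 10 reads or more it became 0. Of all genes 16.0%, 17.9% and 21.1% were lower under these settings. In the same comparison the 1 higher member became 2 without the cluster with the most reads of each gene in each library, where 14.8% of all genes were higher. In the cytoplasmic one the 0 lower members became 1 on exonic reads, where 20.6% of all genes were lower. Median-of-ratios scaling changed the fraction comparison of parental cells from 1 to 2 higher and from 2 to 1 lower. That of *KRT19* KO cells changed from 3 to 1 lower. Of all genes, 25.8% were then higher and 20.02% lower in parental cells, and 25.02% lower in *KRT19* KO cells. Unique reads put the members at 812, 1796, 1140 and 1290 RPM. Leaving out mitochondrial clusters and the largest cluster of each library gave 827 and 1808 in the cytoplasmic libraries and 1256 in the *KRT19* KO nucleus. Counting each cluster once gave 3′UTR shares of 15.1%, 20.3% and 4.49% in the first 3 libraries. Without the member cluster with the most reads, the T-to-C share of the *KRT19* KO nucleus was 77.3%. The share of sites in at least 2 libraries was 24.9% when an overlap of at least 50% of the shorter cluster was required and 25.9% with clusters of at least 10 reads. No paired analysis was possible because there was 1 library per condition and the labels carry no replicate numbers. With 1 library per condition, differences between cultures were not measured, and members with under 50 reads, such as EIF4E3, gave no ratio.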

Other observations

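Clusters that carry another gene's name also lay within the spans of the EIF4 genes on the same strand. The introns of EIF4A1 host snoRNAs, small RNAs that guide chemical changes of ribosomal RNA, and clusters named SNORA67 had 50, 12, 235 and 34 reads in the parental and the *KRT19* KO cytoplasm and then the parental and the *KRT19* KO nucleus. The parental nucleus was the highest there, as it was for EIF4A1 itself. Clusters named SNORA4, hosted by EIF4A2, had 58 reads in the *KRT19* KO cytoplasm and 58 in the parental nucleus, and SNORA63 had 17 reads in every library but the *KRT19* KO cytoplasmic one. Within the EIF4E2 span, 20 clusters without any gene name held 21, 108, 121 and 71 reads in the same order of libraries, more than the clusters named EIF4E2 in both nuclei, where the latter had 51 and 40 reads. That span follows the GENCODE gene to chr2:233448354, beyond the end of the transcript used here, chr2:233433920. Whether the unnamed clusters lay inside the transcript was not examined. None of the clusters of this paragraph entered the values of the members.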
